A study of Mus musculus with 12 samples.

Results

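The insulin-like growth factor (IGF) system was examined gene by gene in bone-forming cells. It was represented by 10 genes chosen by name, the ligands *Igf1* and *Igf2*, the receptors *Igf1r* and *Igf2r*, and the binding proteins *Igfbp2*, *Igfbp3*, *Igfbp4*, *Igfbp5*, *Igfbp6* and *Igfbp7*. The choice was made with earlier results of these data known. Counts and medians of these genes beside all genes tested are therefore a description only. All 10 were listed among 23284 genes in sorted osteoblasts and among 24346 genes in MC3T3-E1 cells. In the first experiment, female Col2.3-ECFP mice aged 12 weeks, in which a type I collagen promoter drives a cyan reporter in mature osteoblasts, received vehicle (phosphate-buffered saline) or human PTH (1-34), the N-terminal fragment of parathyroid hormone, at a daily dose of 40 µg/kg, injected 5 days a week over 3 weeks, and live Lin-CD45-ECFP+ cells were sorted from digested bone 24 h after the last injection (3 libraries per group). In the second, MC3T3-E1 cells, an osteoblast precursor line from mouse calvaria, carried either the empty retroviral vector (mock) or the vector with mouse *Slpi* cDNA, and both were selected with puromycin (3 libraries per group). *Slpi* encodes secretory leukocyte protease inhibitor. The questions were which IGF transcripts differed after intermittent PTH, and which differed when MC3T3-E1 cells overexpressed *Slpi*. The methods treat different mice as biological replicates without saying whether mice were pooled, and nothing says that the MC3T3-E1 libraries came from separate cultures, so *p* values measure the spread between these libraries, which may be technical.

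IGF-1 and IGF-2 are small secreted proteins that promote growth and survival of osteoblasts, and both are stored in bone matrix. They signal mainly through the type 1 receptor, a tyrosine kinase encoded by *Igf1r*, whereas the receptor encoded by *Igf2r* takes IGF-2 to lysosomes for degradation and also carries mannose 6-phosphate-tagged enzymes. The binding proteins hold most IGF outside cells, and proteases that cut them release it. IGFBP-4 is known mainly as an inhibitor of IGF action, IGFBP-5 binds to bone matrix and hydroxyapatite, IGFBP-6 prefers IGF-2, and IGFBP-7 binds IGF weakly.

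Expression was given as FPKM, fragments normalised to transcript length in kilobases and to the number of mapped reads, so that levels of different genes can be compared per length. The FPKM step made by 1 read in genes with a single annotated transcript gave an estimated depth of 5.01 to 8.93 megareads per library in sorted osteoblasts and of 24.9 to 28.7 megareads in MC3T3-E1 cells. *Slpi* itself was 12.7 times as high with PTH as with vehicle (28.2 ± 8.88 against 2.21 ± 0.513 FPKM, SD, n = 3 each) and 5.11 times as high in *Slpi*-overexpressing as in mock cells (1975 ± 129 against 386 ± 9.20 FPKM, SD, n = 3 each). The osteoblast genes *Bglap*, *Ibsp* and *Dmp1* were abundant in every sorted library, whereas in MC3T3-E1 libraries *Bglap* and *Dmp1* did not exceed 2.85 FPKM, *Ibsp* lay between 37.9 and 409 FPKM, *Alpl* between 50.4 and 180 FPKM and *Col1a1* between 7237 and 8740 FPKM. *Col1a1* and *Col1a2* were listed at 0 in vehicle replicate 3 and in all PTH libraries, but between 24170 and 26655 FPKM in the other sorted libraries. Since abundant genes can be listed at 0 in these files, a 0 is given below only as a listed value.

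Sequence upstream of the gene start is shown for the binding proteins *Igfbp4*, *Igfbp5*, *Igfbp6* and *Igfbp7*, because these were the most abundant binding proteins of sorted osteoblasts, and *Igfbp5* and *Igfbp6* were called in opposite directions in the 2 experiments. Each line gives bases -250 to -21 from the RefSeq start on GRCm38.p6 (the assembly of mm10), 5′ to 3′ on the strand of the gene. These windows hold no exon of GENCODE release M21. Capitals mark the letters of a TATA box (TATAAA) or GC box (GGGCGG) on either strand.
Igfbp4 (chr11:99040994-99041223, plus strand): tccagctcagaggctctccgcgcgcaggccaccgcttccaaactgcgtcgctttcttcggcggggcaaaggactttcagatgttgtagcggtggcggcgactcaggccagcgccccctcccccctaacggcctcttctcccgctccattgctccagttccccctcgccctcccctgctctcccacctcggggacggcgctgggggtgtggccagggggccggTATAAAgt
Igfbp5 (chr1:72874886-72875115, minus strand): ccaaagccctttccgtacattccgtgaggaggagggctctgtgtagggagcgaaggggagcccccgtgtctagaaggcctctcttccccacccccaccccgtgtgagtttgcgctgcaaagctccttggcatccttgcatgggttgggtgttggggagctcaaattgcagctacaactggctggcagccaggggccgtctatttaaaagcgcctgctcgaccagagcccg
Igfbp6 (chr15:102143936-102144165, plus strand): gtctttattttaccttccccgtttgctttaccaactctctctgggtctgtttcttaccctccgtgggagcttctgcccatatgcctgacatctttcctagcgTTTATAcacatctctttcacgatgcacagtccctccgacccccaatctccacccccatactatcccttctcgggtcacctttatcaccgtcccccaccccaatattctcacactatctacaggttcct
Igfbp7 (chr5:77408066-77408295, minus strand): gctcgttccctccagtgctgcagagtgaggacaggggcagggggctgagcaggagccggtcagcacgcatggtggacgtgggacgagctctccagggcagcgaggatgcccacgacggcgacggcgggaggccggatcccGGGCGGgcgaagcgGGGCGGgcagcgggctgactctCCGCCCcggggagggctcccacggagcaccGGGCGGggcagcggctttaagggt

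The 4 windows differed in composition, with a GC content of 67.4% for *Igfbp4*, 60.4% for *Igfbp5*, 50.0% for *Igfbp6* and 73.9% for *Igfbp7*. *Igfbp7* held 4 GC boxes, *Igfbp4* a TATA box beginning at -28 and *Igfbp6* the letters of one on the other strand beginning at -148. Of 32851 promoter windows of the same length, 29.8% held a GC box and 11.8% a TATA box. The letters of the core of a cyclic AMP response element (TGACG), present in 15.9% of windows on either strand, and of an AP-1 site (TGANTCA), present in 6.34%, were found in none of these 4. Of the other members, *Igf2r*, also called with PTH, held the first at -200 and -51. *Igf2* held it at -189 in 1 of its 4 windows, and that window lies within an exon. *Igfbp2* held the second at -39 in 1 of its 2 windows, of which 45 bases are in an exon. *Igf1* held the second at -37 in a window that lies within an exon. A match is a description of the letters only, and the absence of one is restricted to the window searched.

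In sorted osteoblasts, transcripts of 3 binding proteins and of *Igf2r* were higher after intermittent PTH by 1.58 to 1.79-fold, whereas both ligands were low in both groups and were not called. All 10 genes passed the filter of at least 1 FPKM in at least 1 of the 6 libraries. With limma on log2(FPKM + 1) and Benjamini-Hochberg adjustment over 13004 genes, 4 of 10 were higher at an adjusted *p* under 0.05, *Igfbp6*, *Igfbp5*, *Igfbp4* and *Igf2r*, where 6.38% of all genes tested were called higher. None of the 10 was called lower by limma (8.85% of all genes tested were), and 6 of the 10, all higher, had an unadjusted *p* under 0.05 (16% of all genes tested were higher by that measure). All PTH libraries lay above all vehicle libraries for 6 genes (19.5% of all genes tested) and below them for 1 gene, *Igf2* (20.9%). No member was called at 2-fold in either direction, where 4.64% of all genes tested were (0.869% higher and 3.78% lower). The median log2 fold change of the 10 genes was 0.54, against 0.0066 over all genes tested.

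**Figure D1:**
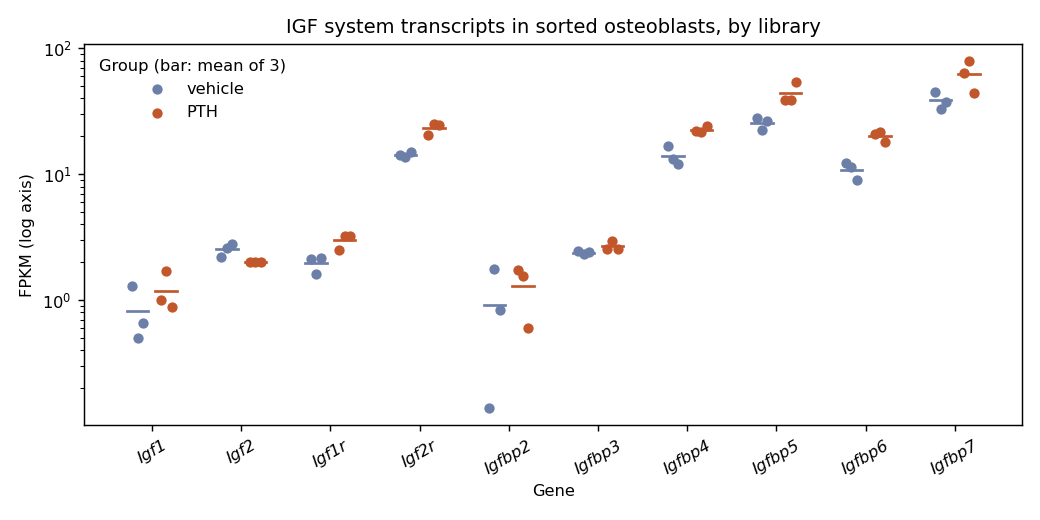
FPKM on a log axis of the 10 IGF system genes in each of the 3 vehicle and 3 PTH libraries of sorted osteoblasts, with a bar at the mean of each group. PTH libraries lie above vehicle libraries for *Igf2r*, *Igfbp4*, *Igfbp5* and *Igfbp6*, while the points of *Igf1*, *Igfbp2* and *Igfbp7* overlap.

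*Igfbp6*, on chromosome 15 (mm10, bases 102144362 to 102149511), reached 12.3, 11.4 and 8.97 FPKM in vehicle replicates 1, 2 and 3 and 20.8, 21.6 and 18.1 FPKM in PTH replicates 1, 2 and 3. The lowest PTH library was above the highest vehicle library. Its log2 fold change of 0.84 (SE 0.143, adjusted *p* = 0.0184) was the largest of the 10 genes. These levels stand for an estimated 52 to 157 reads per library.

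*Igfbp5*, on chromosome 1 from 72857932 to 72874884, had 28.0, 22.6 and 26.4 FPKM with vehicle and 39.2, 39.2 and 53.7 FPKM with PTH. Its groups did not overlap, and PTH replicate 3 was the highest library. The log2 fold change was 0.75 (SE 0.154, adjusted *p* = 0.0273). *Igfbp2*, which lies 5458 bases from *Igfbp5* on the opposite strand with its 3′ end facing that of *Igfbp5*, was not called. Its FPKM was 0.140, 1.78 and 0.835 with vehicle and 1.75, 1.56 and 0.598 with PTH, so that the groups overlapped, and the vehicle replicate 1 value stands for about 1 read. The log2 fold change of *Igfbp2* was 0.32 (95% interval -0.56 to 1.19, adjusted *p* = 0.573) and became -0.010 without vehicle replicate 1. *Tnp1*, on the other side of *Igfbp5*, was listed at 0 in all 12 libraries.

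*Igfbp4*, on chromosome 11 from 99041244 to 99054392, had 16.8, 13.2 and 12.01 FPKM with vehicle and 22.1, 21.8 and 24.01 FPKM with PTH. The PTH libraries lay close together and above every vehicle library (log2 fold change 0.67, SE 0.139, adjusted *p* = 0.0273).

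*Igfbp7*, on chromosome 5 from 77349240 to 77408041, was the most abundant binding protein transcript in both groups. Its FPKM was 45.2, 33.1 and 37.8 with vehicle and 63.3, 78.9 and 44.5 with PTH, and PTH replicate 3 fell below vehicle replicate 1. The log2 fold change of 0.65 was as large as that of *Igf2r*, but the spread between libraries was wider (SE 0.218, adjusted *p* = 0.0883). It was called without PTH replicate 3, at 0.87 (adjusted *p* = 0.0231), and was 0.46 without PTH replicate 2.

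*Igfbp3*, on chromosome 11 from 7206086 to 7213923, encodes the main IGF carrier of blood and was low here. Its FPKM was 2.45, 2.31 and 2.41 with vehicle and 2.57, 2.96 and 2.55 with PTH. The groups did not overlap, yet the log2 fold change was only 0.12 (95% interval -0.20 to 0.44, adjusted *p* = 0.555).

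Of the receptors, *Igf2r* was called higher and *Igf1r* was not. *Igf2r*, on chromosome 17 from 12682406 to 12769664, had 14.1, 13.8 and 15.1 FPKM with vehicle and 20.4, 24.99 and 24.6 FPKM with PTH. The groups were separated by more than the spread within either (log2 fold change 0.66, SE 0.115, adjusted *p* = 0.0192). *Igf1r*, on chromosome 7 from 67952827 to 68233668, was lower in level, at 2.11, 1.603 and 2.16 FPKM with vehicle and 2.51, 3.21 and 3.25 FPKM with PTH. Its groups did not overlap either, but the log2 fold change of 0.43 (95% interval 0.05 to 0.81) did not pass the threshold (adjusted *p* = 0.114).

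Of the ligands, *Igf1* had the lowest mean of the 10 genes in both groups, while *Igf2* ranked 6 with vehicle and 8 with PTH. *Igf1*, on chromosome 10 from 87858265 to 87937042, had 1.31, 0.498 and 0.659 FPKM with vehicle and 0.999, 1.69 and 0.892 FPKM with PTH, and the groups overlapped. Even if all its reads fell on the longest transcript, these values would stand for only 17 to 92 reads. The log2 fold change was 0.28 (95% interval -0.31 to 0.86, adjusted *p* = 0.462), an interval that includes 0. *Igf2*, on chromosome 7 from 142650766 to 142666816, had 2.2004, 2.62 and 2.78 FPKM with vehicle and 2.01, 2.00 and 2.02 FPKM with PTH. The PTH libraries lay just below the vehicle libraries, with a log2 fold change of -0.23 (95% interval -0.57 to 0.11, adjusted *p* = 0.303).

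For each of these 10 genes, the exact permutation test (two-sided, 3 against 3 libraries) could not give a *p* below 0.10, the value reached by 7 of them whose groups were separate. Without vehicle replicate 1 or without vehicle replicate 2, none of the 10 genes passed the adjusted limma threshold, against 5 and 4 at an unadjusted *p* under 0.05, and of all genes tested only 1 and 0 passed it, against 3181 and 3053 unadjusted. Without vehicle replicate 3 the members called were 2, *Igf2r* and *Igfbp6*, and without PTH replicate 1 only *Igf2r* was called. The log2 fold change of *Igfbp6* lay between 0.72 and 0.92 on the log2 scale, that of *Igfbp5* between 0.60 and 0.82, that of *Igfbp4* between 0.57 and 0.80 and that of *Igf2r* between 0.61 and 0.75 when single libraries were omitted.

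Markers of other cells moved with the groups and libraries. In these bulk libraries, fewer cells of a type and less RNA per cell cannot be told apart. Summed FPKM of 11 neutrophil markers was 377 to 470 with vehicle and 703 to 2365 with PTH (8 of 11 higher by limma), and that of 8 T and NK cell markers was 136 to 242 and 1.41 to 27.5 (6 of 8 lower). Of all genes tested, 6.38% were called higher and 8.85% lower. The 8 cardiac muscle markers summed to 3450 FPKM in PTH replicate 2 and to 1.009 to 19.5 FPKM in the other libraries, and 6 skeletal muscle markers to 349 FPKM there and at most 7.83 FPKM elsewhere. PTH replicate 2 was also the library with the most *Igfbp7*, *Igf1*, *Igfbp3*, *Igfbp6* and *Igf2r*. For *Igfbp6* and *Igf2r* the next PTH library was close (21.6 against 20.8 and 24.99 against 24.6 FPKM). PTH replicate 2 had the highest sum of 6 smooth muscle and pericyte markers as well, 497 FPKM against 92.6 to 247 FPKM. Without it, *Igfbp6*, *Igfbp5*, *Igfbp4* and *Igf2r* still passed the threshold, with log2 fold changes of 0.79, 0.82, 0.69 and 0.61 (adjusted *p* = 0.0356, 0.0350, 0.0441 and 0.0364). Endothelial markers (8 genes) summed to 6.17 to 7.57 FPKM with vehicle and 1.503 to 6.46 FPKM with PTH, and macrophage markers (7 listed genes) to 44.6 to 72.8 and 31.6 to 114 FPKM. Of 6 chondrocyte markers 5 were tested and 3 were higher, and the sums were 709 to 835 and 839 to 982 FPKM. The sums of 6 marrow stromal cell markers overlapped between groups (51.3 to 60.2 and 54.5 to 62.5 FPKM). By limma, 1 of the 5 tested, *Lepr*, was higher and none was lower. The sums of 6 hepatocyte markers were 3.17 to 3.81 and 3.68 to 21.3 FPKM, with 1 of 6 higher and none lower by limma. Of the 10 osteoblast markers, *Spp1* and *Alpl* were higher, with log2 fold changes of 0.81 and 0.60 (adjusted *p* = 0.0139 and 0.0398), and the list summed to 17709 to 67404 and 16244 to 27493 FPKM, a range set by the collagen genes listed at 0. The part of these markers in the IGF values was not tested.

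**Figure D2:**
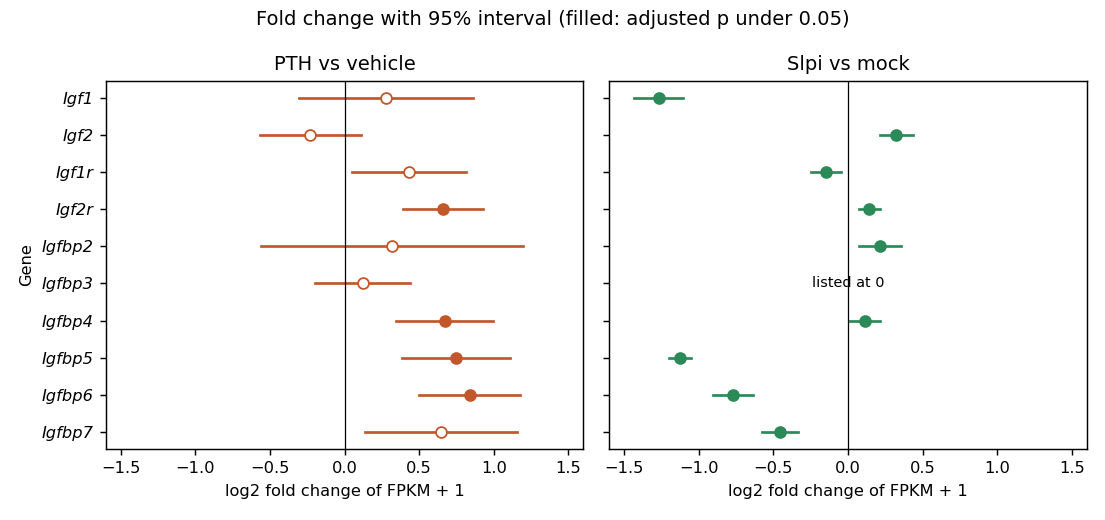
Log2 fold change of FPKM + 1 (x axis) of the IGF system genes (y axis), with its 95% interval from limma, for PTH against vehicle in sorted osteoblasts (10 genes) and for *Slpi* against mock in MC3T3-E1 cells (9 genes, without *Igfbp3*, which could not be tested). Filled points have an adjusted *p* under 0.05. *Igfbp5* and *Igfbp6* lie to the right of 0 with PTH and to the left of it with *Slpi*, and *Igf1* has the lowest value with *Slpi*.

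In MC3T3-E1 cells, overexpression of *Slpi* was accompanied by less *Igf1*, *Igfbp5*, *Igfbp6* and *Igfbp7* and by slightly more *Igf2*. *Igfbp3* was listed at 0 in all 6 libraries and could not be tested, and the other 9 genes passed the filter. Of these 9, 5 were lower and 4 higher at a limma adjusted *p* under 0.05 over 11466 genes. The replicates of this experiment were close together, and 28.9% of all genes tested were called lower and 31.9% higher, 60.8% in either direction. All 9 members were also below an unadjusted *p* of 0.05 (64.9% of all genes tested). A fall of at least 2-fold was reached by 2 of the 9, *Igf1* and *Igfbp5* (0.384% of all genes tested), and a rise of that size by none (0.733%, or 1.12% in either direction). All *Slpi* libraries lay below all mock libraries for 5 genes (32.2% of all genes tested) and above them for 3 genes (34.9%), and only *Igfbp4* overlapped. The median log2 fold change of the 9 genes was -0.15, against 0.0041 over all genes tested.

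**Figure D3:**
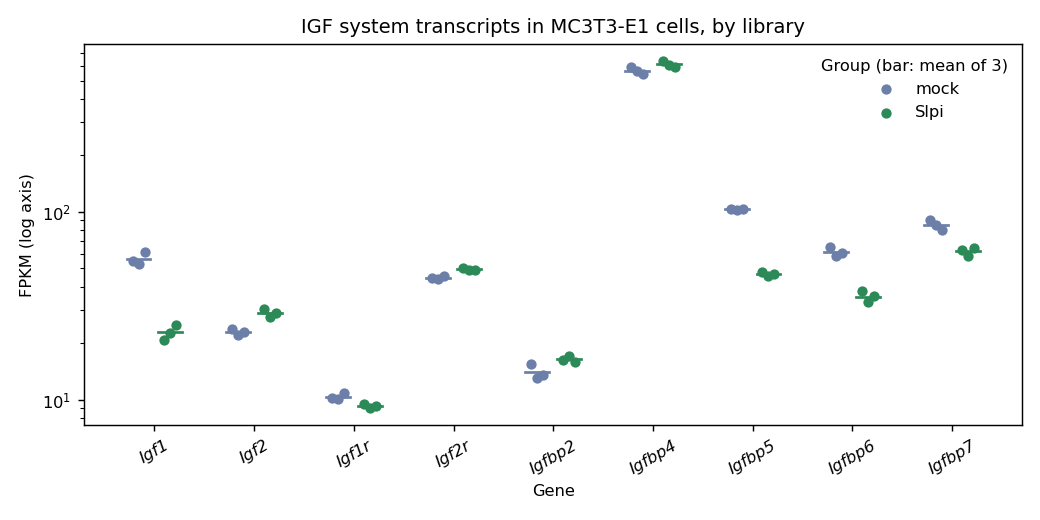
FPKM on a log axis of 9 IGF system genes in each of the 3 mock and 3 *Slpi* libraries of MC3T3-E1 cells, with a bar at the mean of each group (*Igfbp3*, listed at 0 throughout, is not drawn). *Igf1* lies between 20.8 and 24.8 FPKM in *Slpi* libraries and between 52.6 and 61.1 FPKM in mock libraries, and *Igfbp4* is the highest gene in both groups.

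*Igf1* had 55.0, 52.6 and 61.1 FPKM in mock replicates 1, 2 and 3 and 20.8, 22.7 and 24.8 FPKM in the *Slpi* replicates. Every *Slpi* library was thus below the lowest mock library by more than the range within either group. The log2 fold change was -1.27 (SE 0.0716, adjusted *p* = 5.1e-06) and stayed between -1.33 and -1.21 when single libraries were omitted. *Igf2* went the other way, from 23.9, 21.99 and 23.0 FPKM to 30.4, 27.4 and 29.1 FPKM. Its groups did not overlap (log2 fold change 0.32, SE 0.0479, adjusted *p* = 5.4e-04). *Igf1* accordingly made up 69.8% to 72.6% of the summed ligand FPKM in mock libraries and 40.7% to 46.0% in *Slpi* libraries, and the sum was 79.2 ± 4.71 and 51.8 ± 1.95 FPKM (SD, n = 3 each), without overlap. *Pmch*, the next coding gene after *Igf1* in the annotation, had at most 0.215 FPKM in any of the 12 libraries and was not tested.

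*Igfbp5* had 103, 102 and 104 FPKM in mock and 48.0, 45.4 and 46.8 FPKM in *Slpi* libraries. The libraries within a group differed by a few percent, and the groups were far apart (log2 fold change -1.12, SE 0.0318, adjusted *p* = 1.7e-07). Its neighbour *Igfbp2* went from 15.5, 13.1 and 13.5 FPKM to 16.2, 17.0 and 15.9 FPKM. This small difference (log2 fold change 0.21, adjusted *p* = 0.0164) lost its call without mock replicate 2, without mock replicate 3 or without *Slpi* replicate 2, where the adjusted *p* was 0.0589, 0.0545 and 0.0577.

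*Igfbp6* had 65.2, 58.3 and 60.1 FPKM in mock and 37.7, 32.9 and 35.5 FPKM in *Slpi* libraries, and the groups did not overlap (log2 fold change -0.77, SE 0.0582, adjusted *p* = 1.8e-05). *Igfbp7* had 90.1, 85.1 and 80.3 FPKM in mock and 63.0, 57.9 and 64.5 FPKM in *Slpi* libraries, again without overlap (log2 fold change -0.46, SE 0.0538, adjusted *p* = 1.6e-04). *Igfbp4* had 591, 565 and 539 FPKM in mock and 633, 609 and 591 FPKM in *Slpi* libraries, so that *Slpi* replicate 3 lay within the mock range. Its log2 fold change of 0.11 was at the threshold (adjusted *p* = 0.0492) and was not called in 7 of 12 alternatives.

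The receptors differed little. *Igf2r* had 44.6, 44.0 and 45.3 FPKM in mock and 50.4, 48.8 and 49.0 FPKM in *Slpi* libraries, a log2 fold change of 0.14 (adjusted *p* = 0.00428). *Igf1r* had 10.2, 10.1 and 10.8 FPKM in mock and 9.53, 9.04 and 9.25 FPKM in *Slpi* libraries, a log2 fold change of -0.15 (adjusted *p* = 0.0193). The groups were separate for both genes, although the call of *Igf1r* was lost without mock replicate 3 or without *Slpi* replicate 2 (adjusted *p* = 0.0804 and 0.0626). In the same libraries the 6 smooth muscle and pericyte markers summed to 845 to 871 FPKM in mock and 496 to 542 FPKM in *Slpi* cells (of 4 tested genes 3 were lower and 1 higher), the 6 marrow stromal cell markers to 92.6 to 95.01 and 67.5 to 73.5 FPKM (of 5 tested genes 3 were lower and 2 higher), and 10 osteoblast markers to 13960 to 14482 and 14990 to 16218 FPKM (7 of 10 higher and 1 lower). For comparison, 28.9% of all genes tested were called lower and 31.9% higher. The osteoblast sum was mostly *Col1a1* and *Col1a2*, and other genes of the osteoblast list differed more. *Ibsp* had 40.1 ± 2.33 FPKM in mock and 381 ± 23.96 FPKM in *Slpi* cells, *Alpl* 52.6 ± 2.12 and 174 ± 5.57 FPKM, and *Sp7* 29.99 ± 0.800 and 85.8 ± 2.18 FPKM (SD, n = 3 each), while *Spp1* was lower, at 750 ± 11.4 and 573 ± 8.73 FPKM. Markers of neutrophils, T and NK cells and macrophages summed to at most 3.87 FPKM per list. The part of these shifts in the IGF values was not tested.

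Side by side, the sign of the log2 fold change differed between the 2 experiments for 6 of the 9 genes tested in both and was the same for 3, *Igf2r*, *Igfbp2* and *Igfbp4*. Of the 4 genes called in both, 2 had opposite signs and 2 the same sign. Among the genes with opposite signs, *Igf1*, *Igf2*, *Igf1r* and *Igfbp7* were not called with PTH. The share of all genes with opposite signs was not computed, so these counts are a description. Of all genes tested, 50.61% had a positive log2 fold change with PTH and 50.62% with *Slpi*. The experiments share no samples and differ in cell, treatment and the library kit named in the labels. *Igfbp6* had log2 fold changes of 0.84 with PTH and -0.77 with *Slpi*, and *Igfbp5* of 0.75 and -1.12, all past the adjusted threshold. *Igfbp7* had 0.65 and -0.46, the first of which was not called. *Igf2r* was called higher in both, with 0.66 and 0.14, as was *Igfbp4*, with 0.67 and 0.11, the latter at the threshold. The difference between the experiments was not tested, because their FPKM were scaled separately.

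The order of the levels also differed between the cells. In vehicle-treated osteoblasts, *Igfbp7* (38.7 ± 6.10 FPKM, SD, n = 3) came before *Igfbp5* (25.6 ± 2.79), and then *Igf2r*, *Igfbp4* and *Igfbp6*, at 14.4, 14.0 and 10.9 FPKM, of which neighbours overlapped. *Igf2* and *Igfbp3* overlapped at 2.54 and 2.39 FPKM, followed by *Igf1r*, *Igfbp2* and *Igf1* at 1.96, 0.917 and 0.822 FPKM, of which neighbours overlapped. With PTH the first 5 places were the same, although *Igfbp7* and *Igfbp5* now overlapped. In mock MC3T3-E1 cells *Igfbp4* led with 565 ± 25.9 FPKM (SD, n = 3), well above *Igfbp5* at 103, *Igfbp7* at 85.2 and *Igfbp6* at 61.2 FPKM. *Igf1* came next at 56.2 FPKM and overlapped *Igfbp6*, and *Igf2r*, *Igf2*, *Igfbp2* and *Igf1r* followed without overlap at 44.6, 22.9, 14.0 and 10.4 FPKM. In *Slpi*-overexpressing cells *Igfbp5* had dropped behind *Igfbp7* and *Igf2r*, and *Igf1* behind *Igf2*, with no overlap between any neighbours in the order. By its mean, *Igf1* was thus the last of the 10 genes in both osteoblast groups, whereas 5 genes were below it in mock cells. These 5 include *Igfbp3*, which was listed at 0 there.

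Summed over *Igfbp2* to *Igfbp7*, binding protein transcripts reached 92.5 ± 10.9 FPKM with vehicle and 153 ± 11.7 FPKM with PTH (SD, n = 3 each), without overlap. The shares of single binding proteins in this sum overlapped between the groups for the 2 most abundant genes. *Igfbp5* made up 26.7% to 29.8% with vehicle and 23.6% to 37.4% with PTH, and *Igfbp7* 39.3% to 43.1% and 31.0% to 47.5%. The sum over *Igfbp2* to *Igfbp7* was 25.7 to 29.9 times the ligand sum with vehicle and 44.9 to 49.8 times with PTH. In MC3T3-E1 cells the sum was 828 ± 34.5 FPKM in mock and 771 ± 23.7 FPKM in *Slpi* cells (SD, n = 3 each), and these ranges overlapped. Here the shares did not overlap, with *Igfbp4* at 67.7% to 68.6% of the sum in mock and 78.4% to 79.9% in *Slpi* libraries and *Igfbp5* at 11.96% to 13.01% and 5.96% to 6.21%. The binding protein sum was 9.47 to 11.04 times the ligand sum in mock and 14.0 to 15.6 times in *Slpi* libraries.

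**Figure D4:**
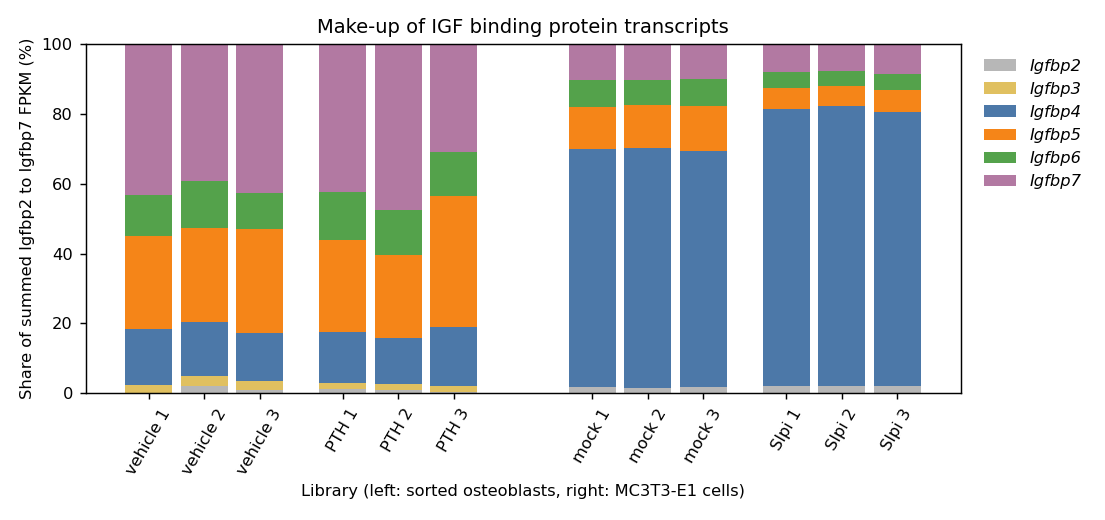
Share in percent of each binding protein in the summed FPKM of *Igfbp2* to *Igfbp7* (stacked bars, 1 bar per library). *Igfbp7* is the largest share in 5 of the 6 osteoblast libraries and *Igfbp4* is the largest in every MC3T3-E1 library, where the share of *Igfbp5* is smaller in *Slpi* than in mock bars.

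Other genes of the pathway were read from 4 lists, of which 52 of 66 genes were tested in each experiment. The list of proteases that cut binding proteins, their inhibitors and other carriers held 13 genes, of which 6 were tested. With PTH, 3 of 6 were higher (6.38% of all genes tested were) and none lower by limma (8.85%), and the median log2 fold change was 0.58. *Htra1*, a secreted serine protease that cuts IGFBP-5, went from 79.5, 72.6 and 84.6 FPKM with vehicle to 139, 131 and 126 FPKM with PTH (log2 fold change 0.74, adjusted *p* = 0.0139). *Adam12*, a metalloproteinase that cuts IGFBP-3 and IGFBP-5, went from 32.9, 29.1 and 35.1 FPKM to 55.8, 49.8 and 77.1 FPKM (log2 fold change 0.87, adjusted *p* = 0.0245). *Ctsd*, the lysosomal protease cathepsin D, had a log2 fold change of 0.59 (adjusted *p* = 0.0172). The groups of all 3 genes were separate, but no gene of the table was called without vehicle replicate 2.

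In MC3T3-E1 cells, 4 of 6 tested genes of this list were lower in *Slpi* libraries (28.9% of all genes tested were) and none higher by limma (31.9%), with a median log2 fold change of -0.21. *Pappa2*, which encodes pappalysin-2, a protease of IGFBP-3 and IGFBP-5, had 511, 491 and 528 FPKM in mock and 314, 294 and 335 FPKM in *Slpi* libraries (log2 fold change -0.70, adjusted *p* = 1.5e-05). It was nearly as abundant as *Igfbp4* in mock cells, but had at most 0.208 FPKM in any sorted osteoblast library. *Adam12*, *Ctsd* and the IGFBP-3 receptor gene *Tmem219* were lower by -0.44, -0.19 and -0.22 on the log2 scale (adjusted *p* = 5.3e-04, 0.00231 and 0.00988).

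Of the 8 genes of the growth hormone axis, which drives *Igf1* transcription in liver and bone, none was called by limma with PTH in either direction, while 2 of 8, *Jak2* (0.35) and *Stat5b* (-0.30, both log2 fold changes and both named after their values were seen), had an unadjusted *p* under 0.05, as had 33.5% of all genes tested. With *Slpi*, 5 were lower and 1 higher, against 28.9% and 31.9% of all genes tested. The receptor gene *Ghr* went from 21.5, 21.98 and 21.7 FPKM in mock to 14.4, 15.2 and 15.1 FPKM in *Slpi* libraries (log2 fold change -0.52, adjusted *p* = 1.4e-05). *Cish*, *Socs3* and *Socs2*, feedback inhibitors of cytokine signalling, had log2 fold changes of -0.71, -0.70 and -0.33 (adjusted *p* = 2.0e-04, 6.7e-05 and 1.1e-04). The remaining calls, named after their values were seen, were *Stat5a* (-0.26) and *Stat5b* (0.22).

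Of 33 tested genes of receptor and intracellular signalling, 2 were higher and 1 lower with PTH, against 6.38% and 8.85% of all genes tested. *Grb14*, an adaptor that inhibits the insulin receptor, went from 3.47, 4.07 and 6.06 FPKM to 9.24, 9.17 and 10.1 FPKM (log2 fold change 0.95, adjusted *p* = 0.0234), and the kinase gene *Pdpk1* had a log2 fold change of -0.40 (adjusted *p* = 0.0397). With *Slpi*, 14 of 33 were higher and 3 lower, where 31.9% and 28.9% of all genes tested were. *Irs1*, the docking protein of IGF and insulin receptors, *Pdpk1* and the translation repressor gene *Eif4ebp1* were higher by 0.34, 0.43 and 0.48 on the log2 scale, and *Pik3r3*, a regulatory subunit of PI 3-kinase, was lower by -0.53 (adjusted *p* = 1.1e-04, 4.0e-05, 1.8e-04 and 1.9e-05). On the scale of log2(FPKM + 1), none of the calls in this list reached 2-fold. The mean FPKM of *Grb14* was 2.10 times as high with PTH as with vehicle.

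The list of *Igf2* mRNA-binding proteins and imprinted partners held 5 tested genes, of which 2 were lower and none higher by limma with PTH (8.85% and 6.38% of all genes tested), and 3 higher and 1 lower with *Slpi* (31.9% and 28.9%). *Plagl1*, an imprinted zinc finger gene, went from 40.5, 37.8 and 32.2 FPKM to 22.03, 18.7 and 18.2 FPKM with PTH (log2 fold change -0.87, adjusted *p* = 0.0143), and from 32.6, 33.8 and 33.4 FPKM in mock to 52.0, 55.6 and 57.1 FPKM in *Slpi* libraries (log2 fold change 0.70, adjusted *p* = 5.7e-06). *Igf2bp3*, whose protein binds *Igf2* mRNA, was lower in both, with log2 fold changes of -1.62 and -0.70 (adjusted *p* = 0.0279 and 6.7e-05), although it was listed at 0 in PTH replicate 3. *H19*, the non-coding gene beside *Igf2*, and *Igf2bp2* were higher with *Slpi* by 0.61 and 0.27 (adjusted *p* = 5.9e-04 and 0.00939). With PTH, *H19* went from 0.585, 0.578 and 0.485 FPKM to 1.74, 7.46 and 1.62 FPKM and was not called (adjusted *p* = 0.0824).

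The genes with values most like those of *Igf1* over the 12 libraries were *Abi3bp*, *Xlr* and *Ndn*. Likeness was the root mean square distance of log2(FPKM + 1), centred on the mean of each experiment, and was 0.134, 0.172 and 0.180 among 10094 genes. Their log2 fold changes with *Slpi* were -1.09, -1.47 and -1.07, and with PTH 0.44, 0.23 and 0.44, beside -1.27 and 0.28 for *Igf1*. Since the genes were chosen for these values, the values are a description.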

How the data were processed

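FPKM values of 12 libraries (4 groups of 3) were used, 1 file per library, with groups taken from the sample titles. According to the methods and the submitters' processing notes, the authors mapped single-end HiSeq reads of 75 bases to mm10 with TopHat2 2.0.13, Bowtie2 2.2.3 and SAMtools 0.1.19, and deposited FPKM from Cuffnorm of Cufflinks 2.2.1. The gene annotation and the scaling option are not given in the sources used here. The methods give the SMART-Seq v. 4 and KAPA kits for all libraries, the labels a TruSeq stranded kit for MC3T3-E1. Low-input amplification and separate scaling limit comparisons to those within an experiment.

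Each experiment was fitted alone in R 4.3.3 by limma 3.58.1, with a mean-variance trend and without a block, on log2(FPKM + 1), for genes with at least 1 FPKM in at least 1 of 6 libraries. A fold change on this scale understates the change of low genes. *P* values were Benjamini-Hochberg adjusted over all genes tested. The model was tried on simulated data. For osteoblasts, 12569 of 13004 genes were tested. Of genes changed by 0.5, 1 and 2 on the log2 scale, 11 of 67, 41 of 67 and 62 of 66 were recovered. Another 3 genes were called wrongly. For MC3T3-E1 cells, 11339 of 11466 genes were tested. Recovery was 61 of 67, 67 of 67 and 65 of 66, and 13 genes were called wrongly. The changes were placed only in genes with a mean log2(FPKM + 1) above 2. In sorted osteoblasts *Igf1*, *Igf2*, *Igf1r*, *Igfbp2* and *Igfbp3* lay below that level, so these rates do not cover them. Recovery was not split further by expression level. Depth was estimated from the FPKM of 1 read in genes with 1 transcript longer than 1500 bases (length less 200 bases). Libraries of 5 and 8 megareads (osteoblasts) and 25 and 30 megareads (MC3T3-E1) were simulated with the same lengths, less the same 200 bases. The estimate was then 0.999 to 1.00 times the true depth. This checks the calculation only, because the assumed lengths were built into the simulation. Reads per gene cover counting error only. Python 3.11.15 with numpy 2.4.6, pandas 2.3.3 and scipy 1.17.1 was used for summaries.

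The members and lists were chosen with earlier results of these data known. Named genes were the 10 members, *Slpi*, up to 4 genes per pathway list and experiment with the smallest adjusted *p* under 0.05, the 3 genes most like *Igf1*, and the coding neighbours of *Igf1* and *Igfbp5*. Some genes that this rule names are not reported here. Alternatives were a replicate block, a pseudocount of 0.1, no trend, a minimum mean of 1 FPKM, no filter, quantile normalization and leaving out each library. Positions are from GENCODE release M21 and sequences from RefSeq. All 12 libraries entered the reported values.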

Additional observations from a re-analysis of the deposited data

How the results depend on the processing

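Of 120 single-gene results of the 10 members under 12 alternatives with PTH, 105 kept direction and side of the threshold, 13 lost the call, 1 gained it (*Igfbp7* without PTH replicate 3) and 1 turned sign (*Igfbp2*, -0.010 without vehicle replicate 1 and up to 0.63 without another library). Of 108 with *Slpi*, 96 were unchanged and 12 lost the call, 7 of them of *Igfbp4*, and *Igf1*, *Igf2*, *Igf2r*, *Igfbp5*, *Igfbp6* and *Igfbp7* were called in all 12. When single libraries were omitted, the members called higher numbered 0 to 5 with PTH (4 with all libraries) and 2 to 4 with *Slpi* (4 with all libraries). Over all genes with PTH, the genes called higher numbered 0 to 674 (830 with all libraries) and lower 0 to 895 (1151), and at 2-fold 0 to 179 higher (113) and 0 to 527 lower (491). Without a filter, 517 genes were called higher with PTH. At 2-fold, a pseudocount of 0.1 gave 182 higher genes with PTH, and 136 higher and 125 lower genes with *Slpi* (84 and 44 with a pseudocount of 1), and quantile normalization gave 172 higher genes with PTH. The cause of these differences was not tested. Every fit without a library had 1 library fewer. The genes called higher with PTH numbered 1 and 0 without vehicle replicates 1 and 2, and 172 to 674 without another library. Replicate numbers were not used as pairs in the main fit. Correlations of same-numbered deviations were 0.029, 0.074 and 0.10 with PTH and 0.039, -0.052 and -0.00030 with *Slpi*. Those of differently numbered libraries ranged from -0.12 to 0.069 with PTH and from -0.099 to 0.10 with *Slpi*. Such weak correlations do not settle whether the replicate numbers mark pairs. With a replicate block, 1028 genes were called higher and 1234 lower with PTH, 3752 and 3420 with *Slpi*, and the members called were 4 and 9, as without it. In sorted osteoblasts *Igfbp2* rested on an estimated 1 to 14 reads per library and *Igfbp3* on 17 to 52. The part of depth in the missing calls was not tested.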
